A study of Homo sapiens with 18 samples.

Results

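Sphingosine 1-phosphate (S1P) and lysophosphatidic acid (LPA) are lipid messengers that leave the cell and act on G protein-coupled receptors. Sphingosine kinases make S1P, the S1P lyase breaks it down for good, and lipid phosphatases return S1P and LPA to forms that no longer bind these receptors. The receptors couple to G proteins and are known in cancer cells for their part in migration, survival and growth. The genes followed here were 10: the kinases SPHK1 and SPHK2, the lyase SGPL1, the S1P phosphatase SGPP1, the phosphatase PLPP3, the S1P receptors S1PR1, S1PR2 and S1PR3, and the LPA receptors LPAR1 and LPAR3. They were taken by symbol from the 21411 genes of the deposited tables, and each symbol matched 1 gene. The genes were selected on their family and on fold changes in these same comparisons, which were known beforehand. The values below therefore describe the set, and a p value says only where a gene stood in the fit over all genes.

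RNA was sequenced from spheroids of MDA-MB-231, an established triple-negative breast cancer line, seeded at 50000 cells in Matrigel of 2 mg/ml and collected on day 7. The 6 conditions had 3 biological replicates each, 18 libraries in all. Jag1WT cells were the parental line, and Jag1KO cells were a mixture of single-cell clones edited with Cas9 in JAG1, the gene of the Notch ligand Jagged1. Jag1KO + rescue cells carried Jagged1 cDNA in pcDNA3.1 and Jag1KO + ctrl cells the empty pcDNA3.1, both kept under G418. Jag1WT cells given nontargeting siRNA were named siCtrl, and those given siRNA against Jagged1 were named siJag1. JAG1 was changed in 3 comparisons. The knockout comparison set Jag1WT against Jag1KO, the rescue comparison set the Jagged1 plasmid against the empty one, and the siRNA comparison set siCtrl against siJag1. They share no library, and a positive log2 fold change always means a higher value in the group with more JAG1.

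Between 10330581 and 18327890 reads per library were counted on genes, and in each of 18 replicate pairs the counts differed by more than sampling noise (chi-square over its degrees of freedom 7.75 to 113). JAG1 lay between 433 and 657 CPM (counts scaled to library size, as deposited) in the groups meant to have more of it and between 110 and 205 CPM in the others, with reads from the plasmid cDNA included in Jag1KO + rescue. Its log2 fold changes were 1.71, 2.22 and 1.68, with adjusted p values of 0.0163, 0.0227 and 0.111 in edgeR's test over all genes. JAG1 itself was thus not called in the siRNA comparison. The Notch target HES1 was 4.88 to 22.4 CPM with more JAG1 and 0.240 to 5.50 CPM with less. Its log2 fold changes were 2.99, 3.79 and 1.60, called in no comparison (edgeR adjusted p = 0.0532, 0.104 and 0.125). HEY1 was 2.76 to 9.21 CPM over all libraries. Its log2 fold changes were 0.13, 0.45 and 0.38, also not called (edgeR adjusted p = 0.891, 0.440 and 0.969). With all 18 libraries in 1 fit JAG1 and HES1 were called and HEY1 was not. VIM, CD44, CAV1 and AXL, which mark this mesenchymal line, were above 127 CPM in every library, while ESR1 had 0 reads in 17 of 18. The other luminal genes listed as absent or low were not all so. GATA3 was 5.25 to 11.5 CPM, and PGR and CDH1 were each above 1 CPM in 1 library. Of the other cell types' markers, PTPRC, CD3E, VWF, CDH5, COL1A2, DCN and LUM were under 1 CPM in every library. The summed leukocyte markers, nearly all CD68, were 141 to 209 CPM in Jag1KO + ctrl and 89.1 to 186 CPM in the other 5 groups, and the summed fibroblast markers, mostly COL1A1, were 3.17 to 10.9 CPM over the 18 libraries. The summed endothelial markers, KDR and PECAM1 for the most part, were 12.4 to 14.2 CPM in Jag1WT and siCtrl and 15.1 to 23.0 CPM in the other 4 groups, Jag1KO + rescue included. Their part in the results was not tested. Proliferation genes set single libraries apart. The mean of log2(CPM + 1) over 20 cell cycle genes was 4.51 in Jag1KO replicate 1 against 6.06 and 6.32 in the other two, 4.80 in Jag1KO + ctrl replicate 3 against 6.40 and 6.89, and 6.75 in siJag1 replicate 2 against 4.71 and 4.85. In Jag1WT, Jag1KO + rescue and siCtrl it ran from 4.48 to 5.60.

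Among the promoters, LPAR1 and LPAR3 were the members with the letters GTGGGAA, the core that the Notch effector RBPJ binds. RefSeq start sites on GRCh38.p14, each taken from 250 bases before to 50 bases after the start, gave 18 windows for 9 of the 10 genes, with no entry for SGPP1. Both strands were searched for GTGGGAA and for TGGGAA, which lies inside the longer motif. GTGGGAA was found in 3 of the 18 windows and in 6.25% of all 35116 windows. By gene it was found in 2 of the 9 genes and in 7.62% of all genes with a window. LPAR1 has 6 of the 18 windows, and 4 of them did not hold it. The shorter TGGGAA was found in 4 of the 18 windows, again in LPAR1 and LPAR3 alone, against 24.0% of all windows and 28.1% of all genes, so that its share was near that of all windows. A match of letters is a description and not a binding site. Windows of SPHK1 and S1PR1 are printed because these were the genes higher with JAG1. Windows of LPAR1 are printed because it was called lower with JAG1. For LPAR1 only the 2 of 6 windows that held GTGGGAA are printed, and for SPHK1 only 1 of 3. S1PR3, whose means were also lower, had neither motif in its 2 windows. Motif letters are in capitals, and all are written 5′ to 3′ on the strand of the gene.
SPHK1, chr17:76382954-76383253, plus strand: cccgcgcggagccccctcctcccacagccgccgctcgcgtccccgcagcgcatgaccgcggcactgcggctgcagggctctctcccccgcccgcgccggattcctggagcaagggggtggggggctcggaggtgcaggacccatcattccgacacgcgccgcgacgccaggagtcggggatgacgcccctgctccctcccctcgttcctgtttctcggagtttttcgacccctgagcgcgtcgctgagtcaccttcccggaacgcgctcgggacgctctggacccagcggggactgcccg
S1PR1, chr1:101236769-101237068, plus strand: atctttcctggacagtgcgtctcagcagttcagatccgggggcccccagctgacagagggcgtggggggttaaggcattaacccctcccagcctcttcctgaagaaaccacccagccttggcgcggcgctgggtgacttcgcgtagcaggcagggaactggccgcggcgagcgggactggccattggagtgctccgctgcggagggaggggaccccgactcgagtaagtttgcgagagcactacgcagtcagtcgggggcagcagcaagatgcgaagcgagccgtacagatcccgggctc
LPAR1, first window, chr9:111038691-111038990, minus strand: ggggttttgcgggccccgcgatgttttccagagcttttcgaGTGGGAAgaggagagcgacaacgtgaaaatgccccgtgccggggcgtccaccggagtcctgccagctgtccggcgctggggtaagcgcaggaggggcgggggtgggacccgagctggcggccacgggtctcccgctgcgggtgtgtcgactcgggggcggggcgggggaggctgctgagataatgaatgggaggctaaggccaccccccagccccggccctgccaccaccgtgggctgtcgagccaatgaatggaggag
LPAR1, second window, chr9:111037580-111037879, minus strand: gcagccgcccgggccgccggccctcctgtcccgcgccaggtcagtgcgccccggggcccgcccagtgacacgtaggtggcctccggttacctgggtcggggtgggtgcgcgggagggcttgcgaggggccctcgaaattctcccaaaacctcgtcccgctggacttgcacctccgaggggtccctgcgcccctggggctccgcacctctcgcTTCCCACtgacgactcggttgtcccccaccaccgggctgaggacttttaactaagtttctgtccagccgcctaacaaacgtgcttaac
In the first LPAR1 window the motif starts at −209 from its start site, and in the second it starts at −38 and reads on the other strand. The other SPHK1 windows, at 2 more start sites, also held neither motif.

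Levels can be set side by side between genes only per length, here as RPKM (the deposited CPM divided by gene length in kilobases). The lyase SGPL1 had the highest mean, with 25.9 ± 4.69 RPKM (mean ± SD over 18 libraries). LPAR1 was above it in 2 libraries, Jag1KO + ctrl replicates 1 and 2 (25.7 and 24.1 RPKM against 15.6 and 14.1 RPKM for SGPL1), and PLPP3 in 1 of them. PLPP3 (16.3 ± 3.12 RPKM), LPAR1 (15.5 ± 4.90 RPKM) and SGPP1 (11.3 ± 1.91 RPKM) came next. Their order was not the same in every library, since PLPP3 was above LPAR1 in 11 of 18 and LPAR1 above SGPP1 in 12 of 18. S1PR3, with 5.01 ± 1.22 RPKM, and SPHK2, with 4.65 ± 0.752 RPKM, could not be ordered either, S1PR3 being higher in 10 of 18. SPHK1 had 2.41 ± 0.959 RPKM and was below SPHK2 in all 18 libraries. S1PR1 (0.471 ± 0.216 RPKM) and S1PR2 (0.302 ± 0.136 RPKM) were low, with 8 to 35 and 7 to 41 reads per library. LPAR3 was at the edge of detection, with 0 to 5 reads per library and 0 reads in 3 of 18, where a count of 0 allows up to 3 reads. These limits cover counting error only. LPAR3 did not pass the filter on low counts in any comparison, and no fold change is given for it.

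**Figure D1:**
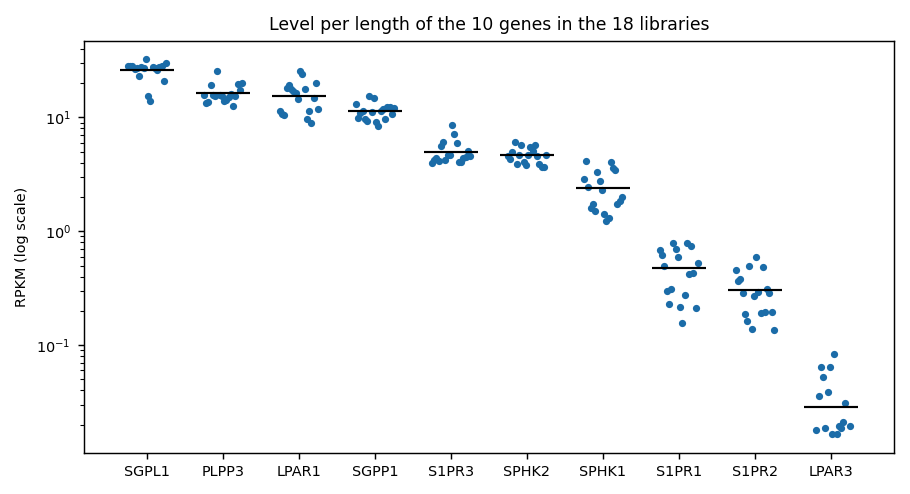
Level per length of each gene, in RPKM on a log scale, with 1 point for each of the 18 libraries and a bar at the mean. Libraries with 0 reads are not drawn (3 of 18 for LPAR3). SGPL1 had the highest mean although LPAR1 was above it in 2 libraries, and S1PR1, S1PR2 and LPAR3 were all below 1 RPKM in every library.

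SPHK1, the inducible cytosolic kinase that makes S1P near the plasma membrane, was higher in each group with more JAG1, by about 2-fold (chromosome 17, 76376584 to 76387860, plus strand of hg38 in GENCODE 44; Entrez gene 8877). Its level was 8.90, 12.8 and 7.63 CPM in Jag1WT and 5.02, 5.41 and 4.68 CPM in Jag1KO. It was 10.4, 8.70 and 7.21 CPM in Jag1KO + rescue and 4.44, 3.83 and 4.09 CPM in Jag1KO + ctrl. With siRNA it was 12.6, 11.1 and 10.8 CPM in siCtrl and 5.39, 5.79 and 6.22 CPM in siJag1. In each of the 3 comparisons the groups did not overlap. The log2 fold changes were 0.95 (standard error 0.235) for Jag1WT against Jag1KO, 1.08 (0.227) in the rescue comparison and 1.00 (0.164) in the siRNA comparison. None of these passed edgeR's quasi-likelihood test over all genes, with adjusted p values of 0.197, 0.104 and 0.338. Over the 18 libraries in 1 fit the mean of the 3 log2 fold changes was 1.00 (standard error 0.110, edgeR adjusted p = 0.000197). It was called in all 18 fits that left out 1 library, with means from 0.92 to 1.05. Among the 6 groups siCtrl was highest and Jag1KO + ctrl lowest. The 3 groups with more JAG1 overlapped their neighbours in that order, as did siJag1 and Jag1KO, while Jag1KO + rescue lay fully above siJag1 and Jag1KO fully above Jag1KO + ctrl.

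SPHK2, the second kinase, which is found largely in the nucleus and mitochondria, had overlapping groups in every comparison. In Jag1KO it was 18.3 ± 4.19 CPM (SD, n = 3), and 17.3 ± 1.25 CPM in Jag1WT. They were 17.0 ± 3.92 CPM in Jag1KO + rescue and 19.1 ± 1.59 CPM in Jag1KO + ctrl. In siCtrl and siJag1 they were 17.8 ± 3.47 and 15.1 ± 2.13 CPM. The mean log2 fold change over 18 libraries was −0.01 (standard error 0.112, edgeR adjusted p = 0.952). Within libraries, the share of SPHK1 in the summed RPKM of both kinases was higher with more JAG1. It was 33.1% to 48.9% in Jag1WT and 20.9% to 30.7% in Jag1KO. In Jag1KO + rescue the share was 36.7% to 40.9% against 18.3% to 23.4% in Jag1KO + ctrl. The siCtrl libraries had 41.4% to 47.1% against 29.9% to 33.4% in siJag1, so that the groups did not overlap in any of the 3 comparisons.

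SGPL1, which cleaves S1P irreversibly, and SGPP1, which dephosphorylates it in the endoplasmic reticulum, had their widest fold changes between the plasmid lines. SGPL1 was 169, 166 and 198 CPM in Jag1KO + rescue and 95.3, 86.2 and 169 CPM in Jag1KO + ctrl. The third Jag1KO + ctrl library thus stood within the rescue group, and the groups overlapped. The log2 fold change of SGPL1 was 0.60 (standard error 0.257, edgeR adjusted p = 0.161), and without Jag1KO + ctrl replicate 3 it was 0.97 (edgeR adjusted p = 0.00410). SGPP1 was 52.1, 37.8 and 50.1 CPM in Jag1KO + rescue and 30.5, 28.2 and 38.3 CPM in Jag1KO + ctrl. Its log2 fold change was 0.52 (standard error 0.185, edgeR adjusted p = 0.125), and without the same library it was 0.66 (edgeR adjusted p = 0.0259). Without that library 28.7% of all genes were called in this comparison. In Jag1WT against Jag1KO the values were 0.13 for SGPL1 and 0.15 for SGPP1, and in the siRNA comparison they were 0.04 and −0.05. SGPL1 did not overlap between Jag1WT (172 to 174 CPM) and Jag1KO (142 to 166 CPM). It also did not overlap between siCtrl (161 to 168 CPM) and Jag1WT, where JAG1 was not changed on purpose. SGPP1 overlapped in each comparison. Over all 18 libraries neither was called (edgeR adjusted p = 0.164 for SGPL1 and 0.166 for SGPP1).

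**Figure D2:**
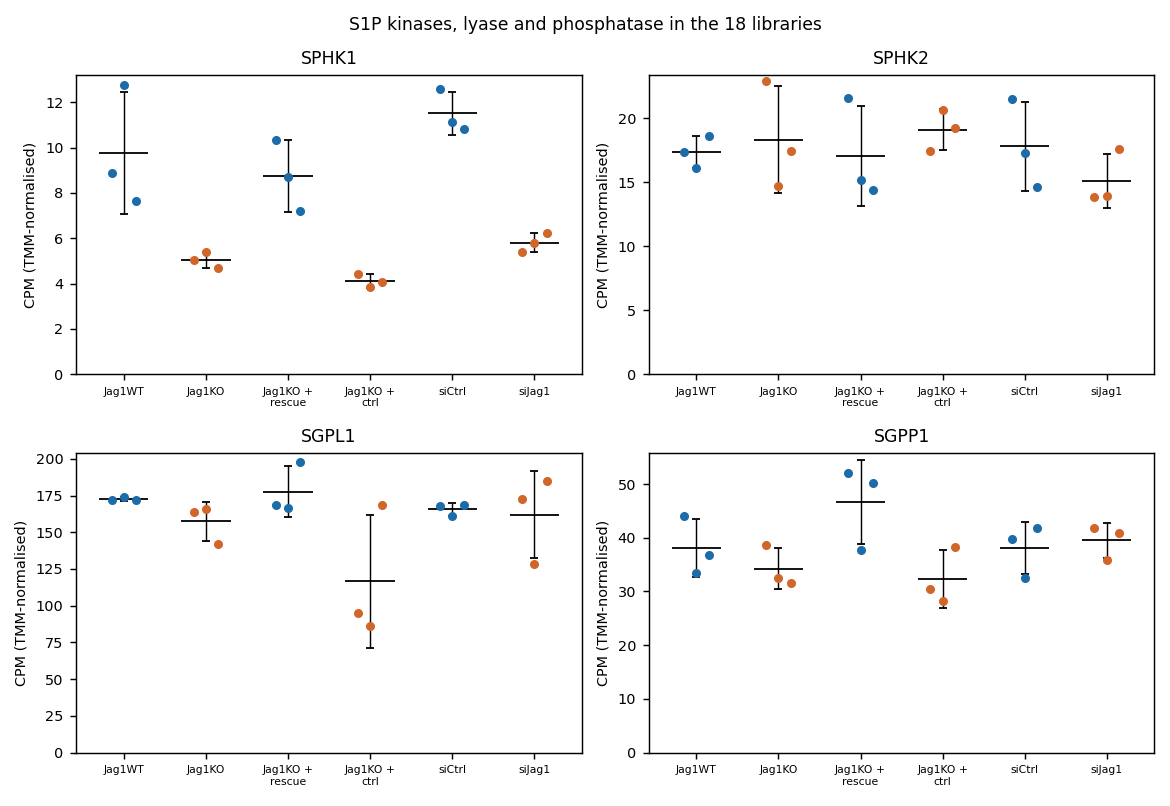
CPM of the S1P kinases, the lyase and the phosphatase in each library of the 6 groups (points), with the mean (bar) and SD (whiskers, n = 3). Blue points are the groups with more JAG1 and orange points those with less. SPHK1 separates each pair of groups, SPHK2 none, and in SGPL1 the third Jag1KO + ctrl library lies at 169 CPM, far from the other two.

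S1PR1, the receptor that couples to Gi and is best known from endothelium and lymphocytes, was higher with JAG1 but rested on few reads (chromosome 1, 101236865 to 101243713, plus strand). It had 33, 25 and 23 reads in Jag1WT and 14, 9 and 10 in Jag1KO. It had 35, 30 and 31 reads in Jag1KO + rescue and 11, 8 and 14 in Jag1KO + ctrl. In siCtrl it had 34, 19 and 30 reads and in siJag1 23, 12 and 23. As CPM the first and second pair of groups did not overlap, with means of 1.82 against 0.855 and of 2.11 against 0.660, whereas siCtrl (1.28 to 2.40 CPM) and siJag1 (0.649 to 1.61 CPM) did. The log2 fold changes were 1.08 (standard error 0.300) for Jag1WT against Jag1KO, 1.65 (0.335) for the rescue and 0.77 (0.402) in the siRNA comparison. Their edgeR adjusted p values were 0.272, 0.104 and 0.969. In the first 2 comparisons S1PR1 passed the filter only through the group with more JAG1, where all 3 libraries were above 1 CPM, against 0 of 3 in the other group. The mean over 18 libraries was 1.16 (standard error 0.192, edgeR adjusted p = 0.00523), called in all 18 fits that left out 1 library. In that fit the 9 libraries with more JAG1 and 2 siJag1 libraries were those above 1 CPM.

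S1PR2, a further S1P receptor, had 7 to 41 reads and no common direction. In Jag1WT it was 1.65 ± 0.210 CPM and in Jag1KO 0.872 ± 0.267 CPM (SD, n = 3), and the groups did not overlap (log2 fold change 0.89, standard error 0.319, edgeR adjusted p = 0.441). In Jag1KO + rescue and Jag1KO + ctrl it was 1.24 ± 0.748 and 1.48 ± 0.873 CPM, with a log2 fold change of −0.26 whose standard error was 0.560. In siCtrl and siJag1 it was 1.36 ± 0.588 and 0.854 ± 0.318 CPM (log2 fold change 0.66, standard error 0.429).

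S1PR3, the S1P receptor with the most mRNA per length in these cells, had a lower mean with more JAG1 in each comparison. Its level was 17.4, 18.6 and 19.4 CPM in Jag1WT and 18.3, 24.6 and 26.5 CPM in Jag1KO. It was 18.6, 20.7 and 20.5 CPM in Jag1KO + rescue and 37.3, 31.3 and 26.0 CPM in Jag1KO + ctrl. With siRNA it was 17.7, 17.7 and 19.2 CPM in siCtrl and 19.6, 22.1 and 20.1 CPM in siJag1. Groups did not overlap in the rescue and siRNA comparisons and overlapped in Jag1WT against Jag1KO through Jag1KO replicate 1. The log2 fold changes were −0.33 (standard error 0.173), −0.67 (0.174) and −0.17 (0.127), with edgeR adjusted p values of 0.631, 0.105 and 0.969. Over 18 libraries the mean was −0.40 (standard error 0.0879, edgeR adjusted p = 0.0360), below the 1.5-fold needed for a call.

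Shares within a library show the same receptors on 1 scale. Of the summed RPKM of S1PR1, S1PR2 and S1PR3, S1PR3 made up between 76.0% and 94.1% over the 18 libraries. The share of S1PR1 was 9.31% to 13.4% in Jag1WT and 3.79% to 6.29% in Jag1KO. It was 10.8% to 14.2% in Jag1KO + rescue and 2.07% to 4.32% in Jag1KO + ctrl. The siCtrl libraries held 9.02% to 14.9% and in siJag1 3.90% to 10.0%, where the ranges overlapped. S1PR4 and S1PR5, the other S1P receptors, did not pass the filter in any of the 3 comparisons.

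**Figure D3:**
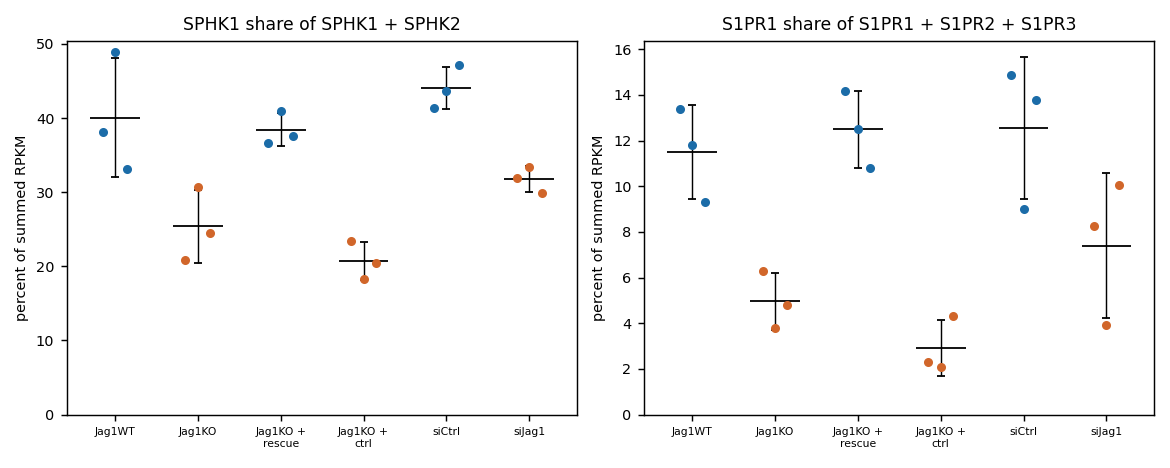
Share of SPHK1 in the summed RPKM of both kinases (left) and of S1PR1 in the summed RPKM of 3 S1P receptors (right), in percent, for each library (points) with the mean and SD (n = 3). The SPHK1 share separates every pair of groups, and the S1PR1 share separates all but siCtrl and siJag1.

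LPAR1, the broadly expressed LPA receptor coupled to Gi, Gq and G12/13, had lower values with more JAG1 in every comparison, as S1PR3 had in its means (chromosome 9, 110873263 to 111038470, minus strand; its windows with GTGGGAA are printed above). It was 47.0, 43.4 and 42.7 CPM in Jag1WT and 73.6, 78.2 and 72.8 CPM in Jag1KO. It was 70.1, 67.2 and 59.2 CPM in Jag1KO + rescue and 105, 98.6 and 72.7 CPM in Jag1KO + ctrl. In siCtrl it was 39.2, 46.5 and 36.3 CPM and in siJag1 60.5, 82.5 and 48.5 CPM. In none of the 3 comparisons did the groups overlap, although the whole Jag1KO + rescue group lay above the whole Jag1WT group. The log2 fold change was −0.76 in Jag1WT against Jag1KO (standard error 0.0983, edgeR adjusted p = 0.0167), and LPAR1 was the only member called there. That call was lost without any 1 of Jag1WT replicates 1, 2 and 3 and Jag1KO replicates 2 and 3 (edgeR adjusted p of 0.108, 0.116, 0.170, 0.0818 and 0.104). In the rescue and siRNA comparisons the values were −0.50 (0.167) and −0.65 (0.202), with edgeR adjusted p values of 0.117 and 0.969. The mean over 18 libraries was −0.64 (standard error 0.1003, edgeR adjusted p = 0.00357). It stayed called in 17 of 18 fits that left out 1 library, and without siJag1 replicate 2 it was −0.56, below 1.5-fold. LPAR1 made up 88.6% to 96.6% of the summed RPKM of the 6 LPA receptors, and of the others only LPAR2 was tested.

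PLPP3, a surface phosphatase that removes extracellular LPA and S1P, did not keep 1 direction. Its level was 51.9, 43.97 and 44.8 CPM in Jag1WT and 64.2, 51.7 and 50.5 CPM in Jag1KO. It was 84.4, 51.6 and 50.7 CPM in Jag1KO + rescue and 46.5, 46.7 and 50.4 CPM in Jag1KO + ctrl, where 1 rescue library stood apart and the lowest rescue value was just above the highest control value. In siCtrl it was 53.2, 42.0 and 51.3 CPM and in siJag1 65.6, 57.5 and 65.7 CPM, without overlap, whereas Jag1WT and Jag1KO overlapped. The log2 fold changes were −0.25 (standard error 0.130), 0.37 (0.212) and −0.36 (0.127), and none was called.

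**Figure D4:**
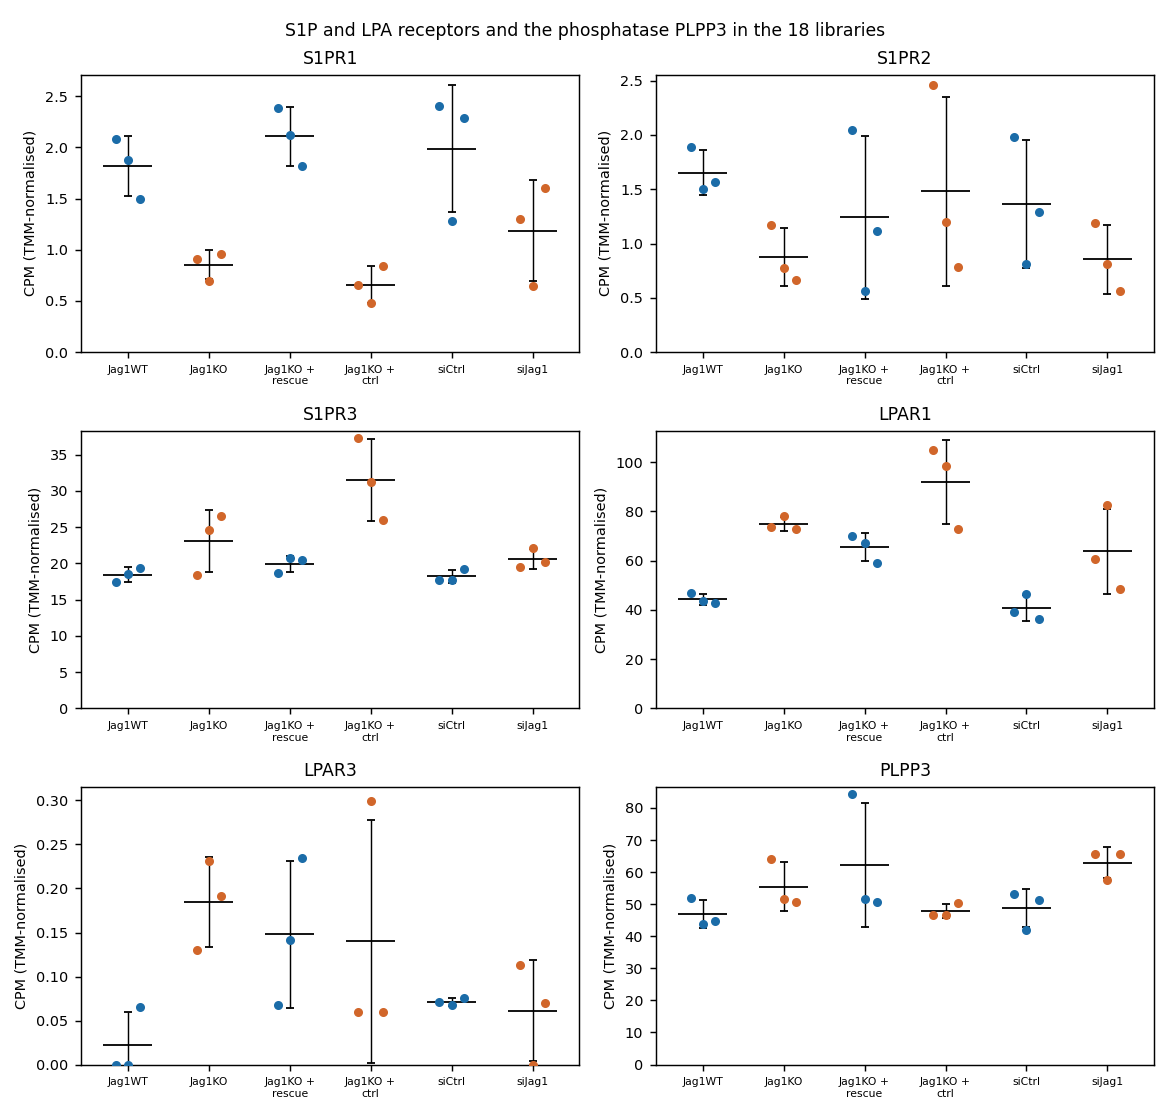
CPM of the S1P and LPA receptors and of PLPP3 in each library of the 6 groups (points), with the mean (bar) and SD (whiskers, n = 3), blue for more JAG1 and orange for less. LPAR1 is lower in each group with more JAG1 without overlap, S1PR1 is higher but overlaps between siCtrl and siJag1, and LPAR3 stays at 0 to 0.300 CPM.

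Counted over the members, 1 of 9 tested was called in Jag1WT against Jag1KO, where 0.704% of all 12928 genes were. In the rescue comparison 0 of 9 were called, against 0.00776% of all (1 gene). That gene was JAG1, with reads from the plasmid cDNA included. In the siRNA comparison 0 of 9 were called, against 0.0156% (2 genes), and JAG1 was not among those. At an unadjusted p below 0.05, 1140, 3965 and 491 genes passed in the 3 comparisons. DESeq2 called 2, 3 and 1 members there, beside 1.82%, 12.2% and 0.195% of all genes. The groups of 5, 5 and 4 of the 9 did not overlap, where 13.8%, 32.4% and 10.5% of all genes did not. In the first 2 comparisons these include S1PR1, which passed the filter only through the group with more JAG1. Its lack of overlap there came with the filter. They also include S1PR2 in the first comparison, above 1 CPM in 3 of 3 Jag1WT and 1 of 3 Jag1KO libraries. These counts only describe the set. SPHK1 and LPAR1 did not overlap in the same direction in all 3, as did 0.532% of all genes. The 18-library mean called 3 of 9 (SPHK1, S1PR1 and LPAR1) and 0.937% of all 12803 genes. S1PR1 passed that filter mostly through the groups with more JAG1, and the members were chosen with these fold changes known. The 2 shares are therefore not a test of the set. The median log2 fold change of the 9 was 0.13, 0.37 and 0.04, beside −0.00879, −0.00237 and −0.00734 for all genes, with 5 of 9 positive each time. In the control comparisons, where JAG1 was not changed on purpose, 0 of 8 members were called between Jag1KO + ctrl and Jag1KO (0% of 13004 genes by edgeR, 756 at an unadjusted p below 0.05, and 13 genes but 0 members by DESeq2). Between siCtrl and Jag1WT 0 of 9 were called (0% of 12847 genes by edgeR, 177 at an unadjusted p below 0.05, and 0 by DESeq2). These controls reuse libraries of the comparisons above. Differences between comparisons were tested in edgeR as interactions. No member passed, with a lowest adjusted p of 0.177, that of PLPP3 between the rescue and siRNA comparisons, while 70, 14 and 12 genes passed in the 3 tests. With replicate numbers as a block 51, 23 and 487 genes passed, and again no member did, the lowest adjusted p being 0.0613 for SGPP1 and 0.0780 for PLPP3 in the same difference (edgeR). Deviations from the group means correlated by replicate number at −0.208, 0.345 and 0.241 in the rescue comparison. In Jag1WT against Jag1KO these were 0.632, 0.667 and −0.0136. The numbers thus did not pair every replicate there, and the block lacks that basis in these differences.

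**Figure D5:**
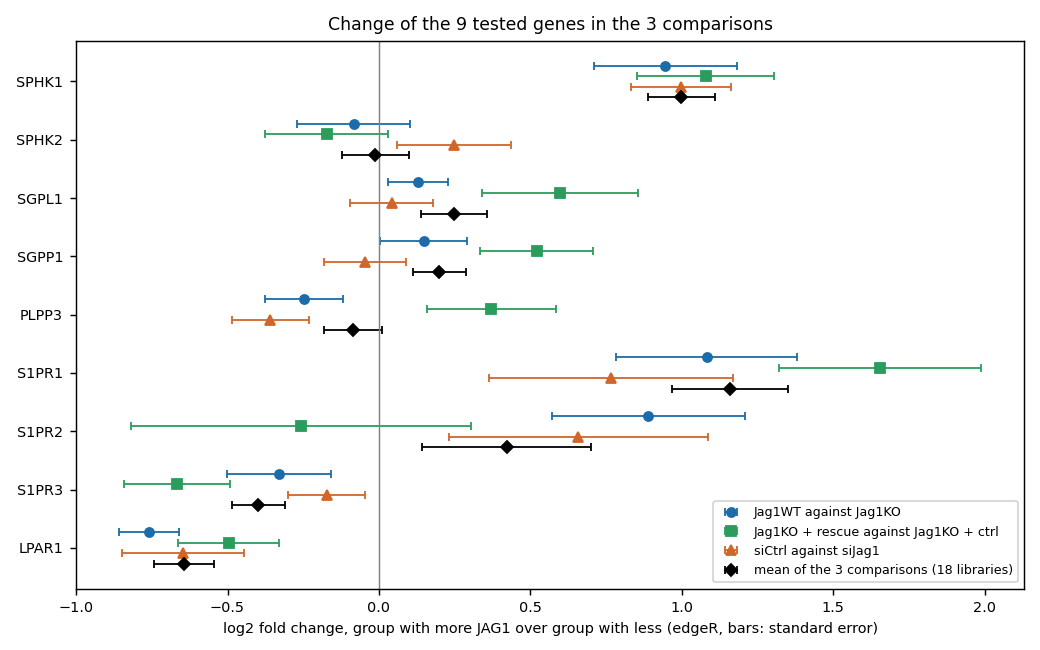
Log2 fold changes with standard errors (edgeR) of the 9 tested genes in the 3 comparisons and of their mean over 18 libraries, with positive values for higher in the group with more JAG1. SPHK1 and S1PR1 lie right of 0 and S1PR3 and LPAR1 left of 0 in every comparison, and PLPP3, S1PR2, SPHK2 and SGPP1 change side.

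The members differed in how they moved with proliferation genes. With each group's mean removed, the level of the 20 cell cycle genes correlated over the 18 libraries with SGPP1 (Pearson's r −0.85), SGPL1 (−0.78), S1PR1 (−0.63) and PLPP3 (−0.58), and in the other direction with S1PR3 (0.72) and LPAR1 (0.70). For SPHK1 r was 0.11. These points share libraries, depth and the normalization of each library, and in bulk RNA fewer cells of a kind and less RNA per cell cannot be told apart. In the 3 comparisons all 20 cell cycle genes had lower values with more JAG1, with median log2 fold changes of −1.21, −1.48 and −0.68, and 1 of them was called. Their part in the results was not tested. An alternative chosen after seeing the data left out Jag1KO replicate 1, Jag1KO + ctrl replicate 3 and siJag1 replicate 2. The same 3 members were called over the remaining 15 libraries, where 6.82% of all genes were called. There the mean log2 fold change was 1.00 for SPHK1, 1.15 for S1PR1 and −0.61 for LPAR1 (edgeR adjusted p = 0.000306, 0.00125 and 0.000120). The cell cycle means left were 6.06 and 6.32 in Jag1KO against 4.49 to 5.33 in Jag1WT. They were 6.40 and 6.89 in Jag1KO + ctrl against 4.48 to 5.44 in Jag1KO + rescue. In siJag1 they were 4.71 and 4.85 against 4.62 to 5.60 in siCtrl. This fit thus left the knockout pairs apart in cell cycle genes, and their part in its calls was not tested.

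Around the members, 69 further genes of these pathways were listed by role, 52 of which were tested in each comparison. In Jag1WT against Jag1KO and over the mean of 18 libraries 1 of 52 was called, and 0 of 52 in the rescue and siRNA comparisons. These were 1.92% of the list, beside the 0.704% and 0.937% of all genes given above. It was IL6 both times, a cytokine gene that S1P and LPA receptors are known to induce. IL6 was 142, 190 and 139 CPM in Jag1WT and 41.3, 67.0 and 59.7 CPM in Jag1KO, and the groups did not overlap. Its log2 fold change was 1.48 (standard error 0.204, edgeR adjusted p = 0.0212), and the call was lost in 5 of the 6 fits that left out 1 library (all but that without Jag1KO replicate 1). In Jag1KO + rescue it was 42.9, 181 and 109 CPM and in Jag1KO + ctrl 50.9, 17.4 and 80.8 CPM, with overlap. In siCtrl it was 157, 191 and 242 CPM against 101, 41.7 and 124 CPM in siJag1, without overlap. Its log2 fold changes there were 1.16 (standard error 0.620) and 1.16 (0.356), and the mean over 18 libraries was 1.26 (standard error 0.296, edgeR adjusted p = 0.0464). The other 5 listed response genes, given here after their values were seen, lay on the other side of 0 in Jag1WT against Jag1KO. Their log2 fold changes were −1.21 for CCN2, −1.001 for FOS, −0.88 for EGR1, −0.48 for CCN1 and −0.20 for CXCL8, none called by edgeR, and DESeq2 called CCN2 and FOS lower. The other comparisons did not repeat this. In the rescue they were 1.75 for EGR1, 1.16 for FOS, 1.14 for CXCL8, 0.49 for CCN1 and −0.28 for CCN2. With siRNA they were 0.16 for EGR1, 0.12 for FOS, 0.05 for CCN1, −0.13 for CXCL8 and −0.82 for CCN2. None of these was called by edgeR, and only CCN2 was below 0 in every comparison. The 21 tested genes of ceramide and sphingosine supply, the 3 of S1P export and removal, the 2 of LPA production and the 3 of LPA removal had 0 called members in each comparison. The secreted LPA-producing enzyme ENPP2 had 0 to 4 reads per library. The median log2 fold change of the 52 was 0.03, 0.02 and −0.03.

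The genes most alike in pattern were taken for the 3 members with the widest range of group means, by Pearson's r of log2(CPM + 1) over the 18 libraries among 12802 genes. For SPHK1 they were SERPINB9 (0.92), LITAF (0.89) and ABCA1 (0.88). For LPAR1 they were PRSS12 (0.91), CPT1C (0.91) and PTK7 (0.90), and for S1PR1 they were B4GALT5 (0.91), NRBP1 (0.90) and SFTA1P (0.89). Between these 3 members r was 0.85 for SPHK1 and S1PR1, −0.79 for SPHK1 and LPAR1 and −0.77 for S1PR1 and LPAR1. With each group's mean removed, these were 0.30, 0.09 and −0.68.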

How the data were processed

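The deposited counts are whole numbers of uniquely mapped reads per gene from stranded mRNA libraries on hg38, counted by the authors with featureCounts per the labels' processing notes. The aligner and the strand setting of the counting are not given in the sources used here, so reads of overlapping antisense genes may be included. The deposited CPM table was read as a signal, because its columns sum to 938087 to 1074370 after the authors' TMM normalization in edgeR 3.28.0. The deposited RPKM equal this CPM divided by 1 length per gene, which gave the RPKM of siJag1 here, and 3 RPKM columns whose names match no sample were not used. Genes without a symbol (292 of 21411) held no more than 0.0442% of any library's counts.

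Counts were tested with edgeR 4.0.16 in R 4.3.3 (TMM, quasi-likelihood test, Benjamini-Hochberg adjustment over all genes) on genes above 1 CPM in at least 3 of 6, 6 of 12 or 9 of 18 libraries. A call needed an adjusted p below 0.05 and a fold above 1.5. limma 3.58.1, DESeq2 1.42.0, other scalings and filters, a replicate block and leaving out libraries were alternatives, and the scripts were tested on simulated counts. With 3 against 3, an exact permutation test cannot go below 0.1. All members are named, as are pathway genes called in a comparison and the 3 genes most alike to each of 3 members. Members and lists were chosen with earlier results of these data known. Replicate numbers pair the libraries of siCtrl and siJag1 (correlations of deviations 0.542, 0.522 and 0.263) and of siCtrl and Jag1WT (0.594, 0.711 and 0.209), which rests on the data and not on a label.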

Additional observations from a re-analysis of the deposited data

How the results depend on the processing

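Of the members' log2 fold changes under the alternatives, 337 kept their direction and side of the threshold, 16 became called, 5 lost the call (LPAR1, given above) and 5 reversed. Fits in which a member did not pass the filter are not among these. S1PR1 was tested in 10, 10 and 13 alternatives of the 3 comparisons and S1PR2 in 13, 13 and 10, against 14 for each other tested member. The number of members called in Jag1WT against Jag1KO, 1, became 2 (SPHK1 and LPAR1) with DESeq2, with all 18 libraries in 1 fit and with the replicate block. In the rescue comparison it was 3 (SPHK1, S1PR1 and S1PR3) with DESeq2 and with all 18 libraries, and in the siRNA comparison 1 (SPHK1) with DESeq2. Leaving out 1 library gave 0 to 1 in Jag1WT against Jag1KO, 0 to 6 in the rescue comparison (6 without Jag1KO + ctrl replicate 3) and 0 to 1 between Jag1KO + ctrl and Jag1KO (SGPL1, without the same library). Called pathway genes were 3 with DESeq2 and 4 with the block in Jag1WT against Jag1KO and 3 with DESeq2 in the rescue, and leaving out 1 library gave 0 to 6 and 0 to 15. Of all genes, DESeq2 called 1.82% and 12.2% in these comparisons. The rescue fit without Jag1KO + ctrl replicate 3 called 28.7% of all genes. Reversals came from leaving out 1 library. Over these fits SPHK2 in Jag1WT against Jag1KO ran from −0.22 to 0.11, S1PR2 in the rescue from −0.79 to 0.30 (0.07 without rescue replicate 2), and in the siRNA comparison SGPL1 from −0.10 to 0.15 and SGPP1 from −0.12 to 0.062. Over all genes the calls were 91, 235 with DESeq2 and 283 with the block in Jag1WT against Jag1KO. In the rescue they were 1, 1572 with DESeq2, 2139 with all 18 libraries and 3659 without Jag1KO + ctrl replicate 3, and with siRNA 2, 25 with DESeq2 and 4 with the block. For the 18-library mean they were 120, 601 with the block and 870 over 15 libraries, an alternative chosen after seeing the data. The causes were not tested. Where the numbers pair the libraries, the block changed no member's call.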
